A study of Mus musculus with 16 samples.

Results

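Metallothionein and zinc transport transcripts were examined in mouse embryonic stem (ES) cells. The 7 genes, Mt1, Mt2, Mtf1, Slc30a1, Slc39a1, Slc39a4 and Slc39a10, were taken by symbol, and all are reported whatever their values. They were chosen with earlier results of these data known. They are 7 of the 24320 gene names in the table of the Pml experiment and 7 of the 24394 in each of 2 further tables. All 7 reached the minimum level for testing (2 or more libraries at 1 or above) in every table. RNA-seq libraries had been made from the E14Tg2a.IV line, whose strain is labelled C57BL/6, grown feeder-free with serum and leukemia inhibitory factor. A second line, CCE, appears in the growth description, tied to no sample. The 16 libraries formed 8 groups of 2 and were deposited as 3 tables, each normalised by itself. One table held wild-type cells and Pml-knockout cells, with no added agent named. The arsenite table compared untreated cells with cells exposed to 200 µM sodium arsenite for 2 h, with no knockout named for either group. The Trim33 table covered 2 genotype labels, wild type and Trim33 knockout, and each had been given either 50 ng/ml activin A or 10 µM SB431542 for 2 h, so none of its groups was untreated. SB431542 is an inhibitor of the activin type I receptor kinases. The labels name neither how the knockout lines were made nor how many clones they represent. The labels do not say whether the 2 libraries of a group are separate cultures. P-values therefore reflect the spread between the libraries at hand, which may be technical.

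Metallothioneins are small, cysteine-rich proteins that bind zinc, copper and other metals and buffer zinc in the cell. Their genes are among the best known targets of MTF1, a zinc-finger transcription factor that binds zinc and then attaches to metal response elements (MREs) in promoters. Arsenite and other thiol-reactive agents can release zinc from proteins, and metallothionein transcripts are a standard readout of metal and oxidative exposure. Zinc leaves the cytosol through transporters of the Slc30a (ZnT) family and enters it through transporters of the Slc39a (ZIP) family. Slc30a1 encodes ZnT1, the zinc exporter of the plasma membrane and itself an MTF1 target. Slc39a1, Slc39a4 and Slc39a10 encode the importers ZIP1, ZIP4 and ZIP10, of which ZIP4 is the intestinal zinc importer lost in acrodermatitis enteropathica.

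The genes are given here with their GRCm38 positions. Mt2 lies at chr8:94172664-94173568 and Mt1 at chr8:94179082-94180327, both on the forward strand and next to each other. Slc30a1 lies at chr1:191906767-191913247 on the forward strand with 2 exons, and Slc39a10 at chr1:46807544-46892852 on the reverse strand with 10 exons. Mtf1 occupies chr4:124802104-124849800 on the forward strand with 11 exons. Slc39a1 occupies chr3:90248172-90253612 on the forward strand with 4 exons, and Slc39a4 chr15:76612383-76617384 on the reverse strand with 12 exons. Of the exonic bases of Mt2, 73.5% are also covered by an antisense gene, Gm45774, and the notes on processing do not name a strand setting. Reads from the 2 strands at Mt2 can therefore not be told apart. The corresponding overlap was 8.92% for Slc30a1 and 8.09% for Mtf1. Of the distinct 50-base words of Slc39a1 transcripts, 21.8% also occur in its pseudogene Slc39a1-ps, so its counts could have been shared with that copy. Mt1 and Mt2 share no such word with each other or with any other annotated transcript.

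The promoters of Mt1, Mt2 and Slc30a1 are printed because these are the members whose RefSeq windows hold MRE cores. Windows were matched for 6 of the 7 genes, and the promoter of Slc39a4 was not examined. Each window runs from 250 bases before to 50 bases after the RefSeq start (build GRCm38.p6), at chr8:94178839-94179138 for Mt1, chr8:94172368-94172667 for Mt2 and chr1:191906531-191906830 for Slc30a1, all on the forward strand. Capitals mark the MRE core searched, TGCACNC or TGCGCNC in either orientation, where N is any base.
Mt1: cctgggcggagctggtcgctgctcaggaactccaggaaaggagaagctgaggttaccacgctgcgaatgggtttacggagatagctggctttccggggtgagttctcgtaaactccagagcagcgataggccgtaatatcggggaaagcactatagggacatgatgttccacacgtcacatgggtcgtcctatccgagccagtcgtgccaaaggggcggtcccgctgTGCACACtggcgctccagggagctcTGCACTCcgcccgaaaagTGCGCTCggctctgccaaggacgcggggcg
Mt2: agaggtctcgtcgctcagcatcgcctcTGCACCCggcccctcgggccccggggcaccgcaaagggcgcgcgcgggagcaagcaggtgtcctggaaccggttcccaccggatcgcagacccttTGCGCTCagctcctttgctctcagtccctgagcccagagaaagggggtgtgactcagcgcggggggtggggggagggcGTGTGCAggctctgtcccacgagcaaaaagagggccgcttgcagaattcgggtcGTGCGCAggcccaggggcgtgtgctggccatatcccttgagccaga
Slc30a1: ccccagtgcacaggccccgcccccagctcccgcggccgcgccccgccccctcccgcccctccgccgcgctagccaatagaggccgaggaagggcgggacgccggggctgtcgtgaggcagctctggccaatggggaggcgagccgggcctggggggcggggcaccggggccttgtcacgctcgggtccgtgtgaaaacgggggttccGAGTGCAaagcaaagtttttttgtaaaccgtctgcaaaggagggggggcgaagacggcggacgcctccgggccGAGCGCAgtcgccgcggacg

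The Mt1 window held 3 MRE cores, all in the gene's own orientation. The Mt2 window held 4, of which 2 were in each orientation, and the Slc30a1 window held 2, both in the opposite orientation. Of 32851 RefSeq promoter windows of the same length, 25.7% held at least 1 MRE core, 7.11% at least 2, 1.97% at least 3 and 0.517% at least 4. The RefSeq start of Mt1 is an upstream one. GENCODE annotates further Mt1 transcripts that begin 122 and 152 bases downstream of it, and windows of the same length around those starts held 5 cores each. An antioxidant response element core (TGACNNNGC, either orientation), the word bound by NRF2, occurred once each in the windows of Mt2, Slc30a1 and Slc39a1, against 12.4% of all windows, and overlapped no MRE core. The windows of Mtf1 and of both listed starts of Slc39a10 held neither word. These matches describe letters in a window and not binding.

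**Figure D1:**
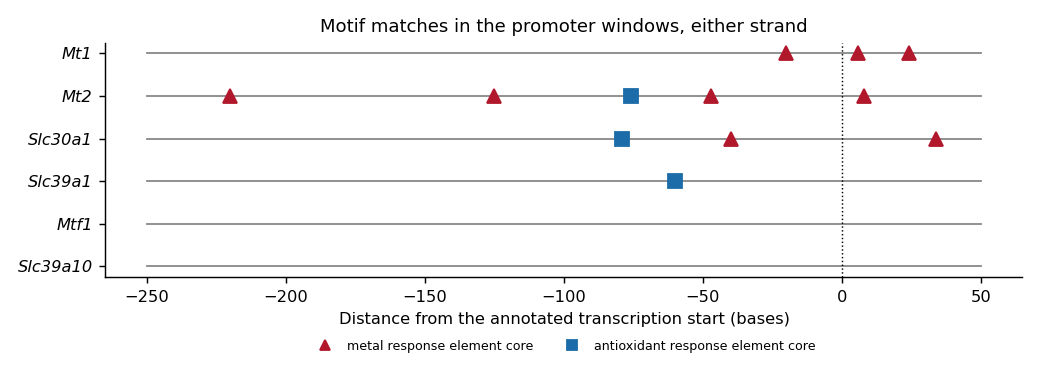
Positions of MRE cores (red triangles) and antioxidant response element cores (blue squares) in the 300-base RefSeq promoter windows of 6 genes, with the distance from the annotated start in bases on the horizontal axis. Mt2 carries 4 MRE cores, Mt1 3 and Slc30a1 2, and the other windows shown carry none. Slc39a4 was not examined.

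Both groups of the Pml table and of the arsenite table carried all 10 ES cell markers examined, such as Pou5f1 and Sox2, at 1 or more, and so did all groups of the Trim33 table. Pml itself was lower but not absent in the Pml knockout, with 49.8 and 45.1 FPKM in wild type and 32.0 and 33.5 FPKM in the knockout. The Y-linked gene Eif2s3y fell from 16.2 and 20.6 to 1.10 and 0.753 FPKM in the same comparison, so the 2 lines differ in more than the Pml label, and these differences cannot be told apart from the genotype. In the Trim33 table, Trim33 was low under the knockout label with activin A (2.53 and 2.79 RPKM) but also under the wild-type label with SB431542 (2.94 and 2.44 RPKM). It was 18.3 to 24.6 RPKM in the other 4 libraries. The SB431542 libraries thus go against their genotype labels, and groups of that table are called by their labels throughout. Eif2s3y moved with Trim33 there too, at 0 to 0.143 RPKM in the 4 libraries low in Trim33 and at 38.3 to 41.0 RPKM in the other 4. A line difference and the Trim33 level can therefore not be told apart in any label contrast of that table.

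After 2 h of arsenite 5 of the 7 transcripts were higher. Mt1, Mt2 and Slc39a4 rose most, to between 3.22 and 4.64 times the untreated level, Slc30a1 rose 2.57-fold and Slc39a10 1.22-fold. Mtf1 and Slc39a1 did not pass the test. Over all 12136 genes tested in that table, 67.7% were called, 40.7% as higher and 27.0% as lower. A call alone therefore separates the members little from other genes, and their sizes are the more informative values. The median log2 fold change was 1.25 over the 7 genes and 0.08 over all genes tested. As the 7 were chosen with earlier results of these data known, these medians are a description only.

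Mt1 was at 232 and 189 RPKM in the untreated libraries and at 1013 and 922 RPKM after arsenite. Mt2 was at 486 and 431 RPKM in the untreated libraries and at 1539.7 and 1416 RPKM after arsenite. Both arsenite libraries stood far above both untreated ones for each gene. The difference in Mt1 was 2.20 ± 0.09 (log2 fold change ± SE, adjusted p = 1.43e-06, 95% interval 1.99 to 2.41), and that in Mt2 was 1.69 ± 0.07 (adjusted p = 1.14e-06). Ranked from the most abundant transcript down, Mt2 moved from places 119 and 129 to places 25 and 28 of 24394, and Mt1 from 260 and 320 to 48 and 52. The 2 genes together made up 0.155% and 0.134% of the summed RPKM without arsenite and 0.585% and 0.547% with it. Mt1 rose by the larger factor, and the ratio of Mt2 to Mt1 went from 2.09 and 2.28 to 1.52 and 1.53.

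Slc30a1, the zinc exporter gene, was at 7.44 and 7.18 RPKM without arsenite and at 18.7 and 18.8 RPKM with it. Its log2 fold change was 1.25 ± 0.06 (adjusted p = 2.13e-06). Slc39a4, the gene of the importer ZIP4, was at 16.6 and 17.3 RPKM without arsenite and at 80.4 and 76.7 RPKM with it, a log2 fold change of 2.15 ± 0.05 (adjusted p = 1.62e-07). The exporter gene and this importer gene thus rose in the same libraries, and neither had overlapping groups. How many of all genes had groups without overlap was not counted.

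Slc39a10 rose from 18.1 and 17.4 to 20.8 and 22.7 RPKM, by 0.28 ± 0.06 on the log2 scale (adjusted p = 0.00415). The groups did not overlap, but the step was small beside that of Slc39a4. Slc39a1 was at 25.6 and 25.3 RPKM without arsenite and at 23.9 and 23.2 RPKM with it, also without overlap. Its difference of -0.10 ± 0.05 missed the threshold (adjusted p = 0.0766), and it passed as lower after the libraries were rescaled by a trimmed mean (-0.20, adjusted p = 0.00601) or by quantile normalisation (-0.13, adjusted p = 0.0365). With those rescalings the share of called genes that were higher was 48.7% and 49.0%, against 60.1% for the values as deposited, and the 5 members called higher were called higher under both.

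Mtf1, whose protein activates the metallothionein genes, was at 3.56 and 3.77 RPKM without arsenite and at 3.19 and 3.92 RPKM with it. The groups overlapped, and the 95% interval of the log2 fold change, -0.28 to 0.20, leaves out changes of the size seen in Mt1, Mt2, Slc30a1 or Slc39a4. RNA levels say nothing of the activity of the MTF1 protein.

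**Figure D2:**
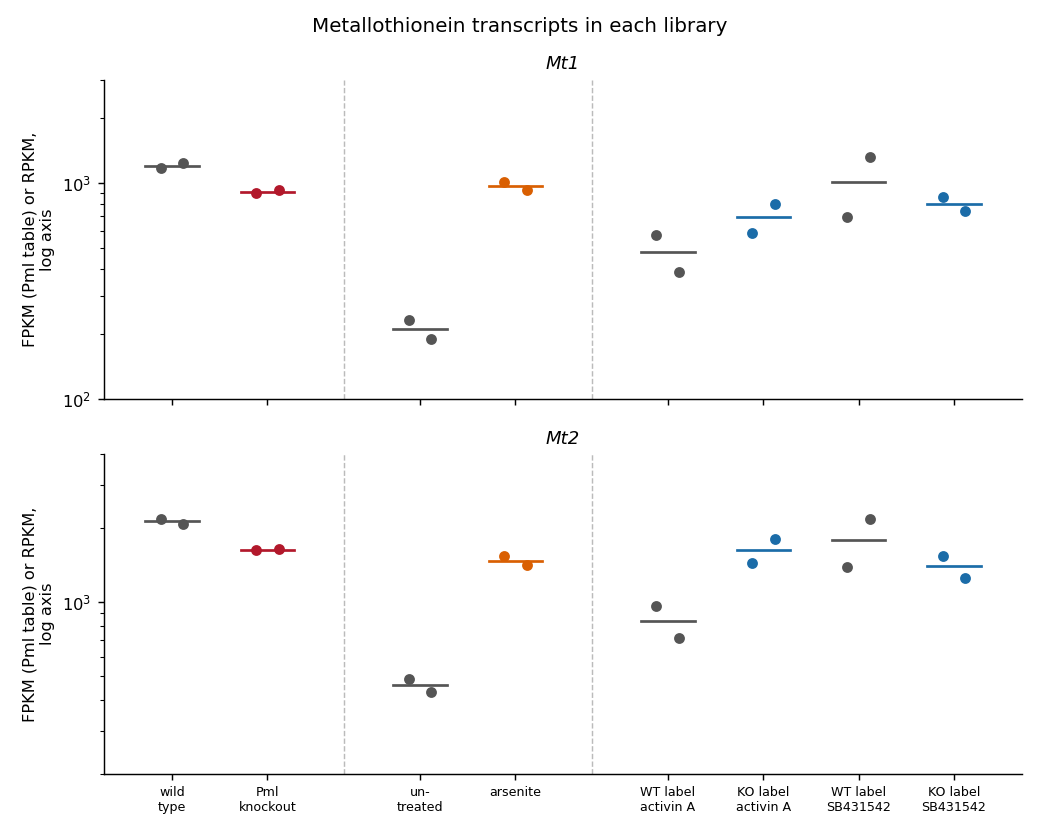
Levels of Mt1 (top) and Mt2 (bottom) in each of the 16 libraries on log axes, in FPKM for the Pml table and RPKM for the others, with dashed lines between separately normalised tables. Points are libraries and horizontal bars are group means. Both genes were about 3 to 5 times higher in the arsenite libraries than in the untreated ones, and the activin A libraries labelled wild type were the lowest of the 8 in the Trim33 table.

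Markers of other cell types moved with arsenite as well. The summed level of 10 ES cell markers fell from between 5397 and 5477 to between 2821 and 2929.9 RPKM. Most of them fell, but Utf1 (294 to 376 RPKM, group means) and Tfcp2l1 (59.5 to 72.9 RPKM) were higher. The sum of 10 primitive and visceral endoderm markers rose from between 8.67 and 9.91 to between 20.6 and 20.8 RPKM, with Afp and Ttr, which define visceral endoderm, listed at 0 in all 4 libraries. The sum of 8 trophectoderm markers rose from between 94.6 and 96.0 to between 161 and 165 RPKM, with keratin genes such as Krt8 higher (14.0 to 41.0 RPKM, group means) and Tfap2c lower (58.8 to 43.5 RPKM). The sum of 9 fibroblast markers rose from between 16.4 and 16.8 to between 53.9 and 56.0 RPKM, most of it Tagln (8.88 to 46.6 RPKM), while Thy1 was lower (4.27 to 2.31 RPKM), Col1a1 stood at 0.873 RPKM without and 0.933 RPKM with arsenite, and Lum was listed at 0 in both untreated and both arsenite libraries. Their part in the changes of the 7 genes was not tested. In RNA from whole cultures, a change in the share of cells of one type and a change in RNA per cell cannot be told apart.

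The wider zinc families also held called genes, at shares to be read against the 67.7% of all genes called and the 40.7% called higher. Of the 8 Slc30a genes tested of 10, 5 were called higher with arsenite and 0 lower (5 had an unadjusted p under 0.05 in limma), with a median log2 fold change of 0.22. The largest rise among them was that of Slc30a2, a vesicular zinc transporter gene, from 10.9 ± 0.241 to 44.8 ± 0.604 RPKM (SD, n = 2), or 1.95 ± 0.05 on the log2 scale (adjusted p = 1.91e-07). Slc30a4, Slc30a6 and Slc30a9 rose by less, with log2 fold changes of 0.29, 0.27 and 0.16. Of the 11 Slc39a genes tested of 14, 7 were called higher and 2 lower, with a median of 0.28. Slc39a4 stood apart in size. The next largest log2 fold changes were those of Slc39a13 (0.67 ± 0.08) and Slc39a8 (0.60 ± 0.11). The genes called lower were Slc39a14 (-0.31) and Slc39a11 (-0.22). Before the log2 step 1 was added to each value, which shrinks changes of low genes. By the ratio of group means, Slc39a8 rose more (2.73-fold, from 0.424 to 1.16 RPKM) than Slc39a13 (1.72-fold). Slc30a8, Slc30a10, Slc39a2, Slc39a5 and Slc39a12 were below the level for testing in all tables. Of these, Slc39a5 was at 0.0577 and 0.0683 RPKM without arsenite and at 0.628 and 0.448 RPKM with it.

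Mt3, a metallothionein gene best known from brain, was much less abundant than Mt1 or Mt2 but rose as well, from 2.02 ± 0.388 to 4.04 ± 0.0125 RPKM (SD, n = 2; 0.74 ± 0.11, adjusted p = 6.23e-04). Mt4 was listed at 0 in both untreated libraries and at 0 and 0.320 RPKM after arsenite, and was not tested. Among 6 other genes reported as MTF1 targets, 3 of the 5 tested were called higher and 2 lower. Slc40a1, which encodes the iron exporter ferroportin, rose from 0.742 ± 0.123 to 24.8 ± 0.368 RPKM (SD, n = 2; 3.89 ± 0.08, adjusted p = 1.62e-07). Gclc, which encodes the catalytic subunit of the enzyme that starts glutathione synthesis, rose by 1.09 ± 0.05 and Csrp1 by 0.30. Ndrg1 fell by 1.11 on the log2 scale and Sepw1 by 0.90. Genes of copper handling split in both directions, with 5 of 10 tested called higher and 4 lower. The largest rise among them was that of Atox1, a cytosolic copper chaperone gene, from 57.6 and 55.8 to 111 and 106 RPKM (0.92 ± 0.04), followed by Atp7a, a copper-exporting ATPase gene, at 0.68 ± 0.08.

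**Figure D3:**
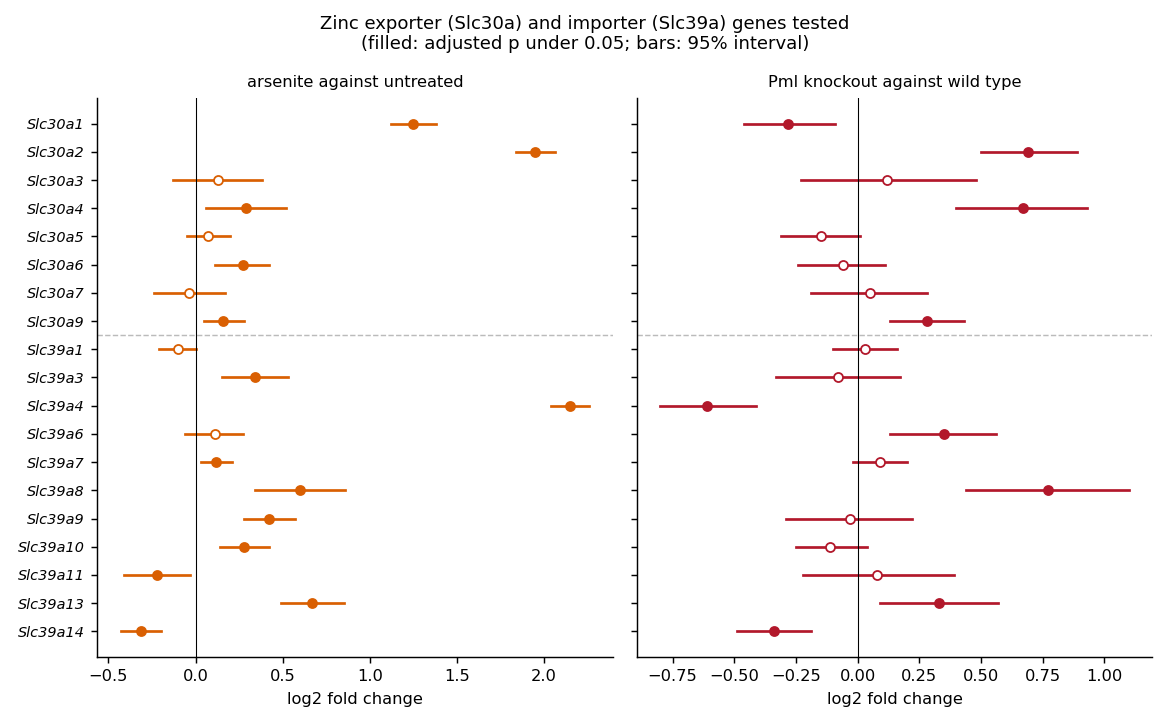
Log2 fold changes with 95% intervals for the Slc30a genes (above the dashed line) and the Slc39a genes (below it), for arsenite against untreated (left) and Pml knockout against wild type (right). Filled points passed an adjusted p of 0.05. Slc30a1, Slc30a2 and Slc39a4 stand apart on the left, and on the right Slc30a2 and Slc39a8 were higher while Slc30a1 and Slc39a4 were lower.

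In the Pml knockout, 4 of the 7 transcripts were lower than in wild type. Limma called 0 higher, and the same count of 4 had an unadjusted p under 0.05. Slc39a4 fell most, to 0.636 of the wild-type mean, and Mt1, Mt2 and Slc30a1 were at 0.758, 0.768 and 0.808 of it. Over all 11648 genes tested, 35.5% were called, 18.9% as lower and 16.6% as higher. The median log2 fold change was -0.28 over the 7 genes and -0.02 over all genes tested. These 4 genes are among the 5 that were called higher with arsenite, where 40.7% of all genes tested were called higher. How many genes overall were lower here and higher with arsenite was not counted. The 7 genes were chosen with earlier results of these data known, so this overlap is a description only. The 2 experiments share no library.

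Mt1 was at 1169.8 and 1235 FPKM in wild type and at 897 and 926 FPKM in the knockout. Mt2 was at 2186 and 2081 FPKM in wild type and at 1638 and 1641 FPKM in the knockout. The groups did not overlap for either gene, and the spread within each was smaller than the step between them. Groups of Slc39a10 and Slc39a1, which did not pass, did not overlap either. The share of all genes without overlap was not counted. The log2 fold change was -0.40 ± 0.05 for Mt1 (adjusted p = 4.52e-04) and -0.38 ± 0.05 for Mt2 (adjusted p = 5.40e-04). The ratio of Mt2 to Mt1 stayed between 1.69 and 1.87 in the 4 libraries, with overlapping groups.

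Slc39a4 was at 19.5 and 16.8 FPKM in wild type and at 11.4 and 11.7 FPKM in the knockout (-0.61 ± 0.08, adjusted p = 8.64e-04). Slc30a1 was at 9.58 and 9.65 FPKM in wild type and at 7.46 and 8.08 FPKM in the knockout (-0.28 ± 0.08, adjusted p = 0.0274). The call on Slc30a1 was the weakest of the 4. It was lost without the first knockout library (adjusted p = 0.162), without either wild-type library (0.0699 and 0.0713) and without the filter on low values (0.0676), and its direction was kept in each.

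The remaining members did not pass. Slc39a10 was at 28.7 and 30.6 FPKM in wild type and at 26.8 and 28.1 FPKM in the knockout, with a 95% interval of -0.25 to 0.04 on the log2 scale. Slc39a1 was at 26.9 and 26.2 FPKM in wild type and at 27.0 and 27.1 FPKM in the knockout, with an interval of -0.10 to 0.16. Mtf1 was at 3.59 and 3.54 FPKM in wild type and at 2.88 and 4.03 FPKM in the knockout, so its groups overlapped, and its interval of -0.35 to 0.25 is wide enough to hold a change of the size seen in Slc30a1.

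**Figure D4:**
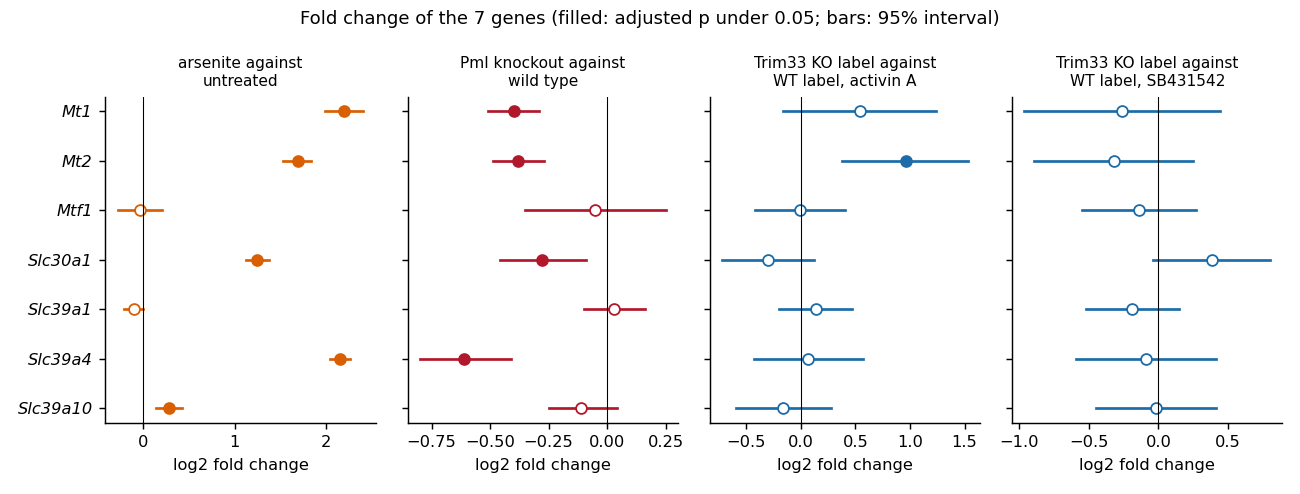
Log2 fold changes of the 7 genes with 95% intervals in 4 comparisons, each on its own horizontal scale. Filled points passed an adjusted p of 0.05. With arsenite 5 genes were higher, in the Pml knockout 4 were lower, and in the Trim33 table Mt2 alone passed, in the libraries given activin A.

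Marker sums also differed between the 2 lines. Trophectoderm markers summed to 65.8 and 71.3 FPKM in wild type and to between 718 and 731 FPKM in the knockout, with 5 of 8 and 7 of 8 markers at 1 or more. Most of the knockout sum was keratin genes, with group means of 18.0 and 323 FPKM for Krt8, 11.8 and 280.5 FPKM for Krt18 and 5.23 and 67.3 FPKM for Krt19. Cdx2 rose from 0.711 to 13.4 FPKM, Eomes from 1.36 to 2.64 FPKM and Gata3 from 0.0614 to 1.11 FPKM. Tfap2c stood at 31.3 and 37.0 FPKM and Elf5 at 0.0345 and 0.0808 FPKM. Fibroblast markers summed to between 18.1 and 19.4 FPKM in wild type, where Lum was listed at 0, and to between 315 and 335 FPKM in the knockout, with 3 of 9 and 6 of 9 markers at 1 or more. Tagln made up most of that sum, with group means of 9.52 and 271 FPKM. Acta2 rose from 1.13 to 33.7 FPKM, Col1a1 from 0.200 to 9.73 FPKM, Col3a1 from 0.0510 to 4.59 FPKM and Col1a2 from 0.0279 to 1.35 FPKM. Thy1 fell from 7.27 to 4.27 FPKM and Pdgfra from 0.547 to 0.152 FPKM. Endoderm markers summed to between 9.71 and 9.95 FPKM in wild type and to 5.17 and 5.21 FPKM in the knockout, with Ttr listed at 0 in both wild-type libraries and Afp in both knockout libraries. The ES cell marker sums were 8192 and 8213 FPKM in wild type and 7788 and 8042 FPKM in the knockout. The part of these markers in the differences of the 7 genes was not tested.

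All 4 metallothionein genes were lower in the Pml knockout. Mt3 fell from 11.1 and 10.9 to 6.28 and 6.19 FPKM (-0.73 ± 0.08, adjusted p = 1.96e-04). Mt4 was at 8.78 and 8.18 FPKM in wild type and at 1.91 and 4.82 FPKM in the knockout (-1.20 ± 0.26, adjusted p = 0.00807). Genes near the metallothionein cluster were lower too. Of the 15 other annotated genes within 200 kb of Mt1 or Mt2, 8 were in the table and 6 were tested, and 5 of these were called lower: Mt3, Mt4, Bbs2 (-0.47 ± 0.09), Ogfod1 (-0.30 ± 0.08) and Nup93 (-0.22 ± 0.05). Over all genes tested in the Pml table, 18.9% were called lower. Bbs2 encodes a protein of the ciliary BBSome and Nup93 a nucleoporin. With arsenite, 5 of these neighbours were tested, 2 were called higher (Mt3, and Bbs2 at 0.33) and 2 lower (Nudt21 at -0.19 and Nup93 at -0.12). These counts lie near the shares over all genes with arsenite, 40.7% called higher and 27.0% lower. The median log2 fold change with arsenite was 0.01 over the neighbours tested and 0.08 over all genes.

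The wider zinc families moved in both directions in the Pml knockout. Counts in these and the further lists are to be read against all genes tested. Of those, 35.5% were called, 16.6% as higher and 18.9% as lower. Of the 8 Slc30a genes tested, 3 were called higher and 1, Slc30a1, lower, with a median log2 fold change of 0.09. Slc30a2, which rose with arsenite, was also higher in the knockout, at 7.33 and 8.42 FPKM in wild type and 13.3 and 13.4 FPKM in the knockout (0.69 ± 0.08, adjusted p = 4.26e-04). Slc30a4 (0.67 ± 0.12) and Slc30a9 (0.28) were the other two. Of the 11 Slc39a genes tested, 3 were called higher (Slc39a8 at 0.77 ± 0.14, Slc39a6 at 0.35 and Slc39a13 at 0.33) and 2 lower (Slc39a4, and Slc39a14 at -0.34 ± 0.07), with a median of 0.03. Of 6 other reported MTF1 targets, all tested, 4 were called higher and 1 lower. Csrp1 (1.82), Pgf (1.38), Slc40a1 (0.58) and Sepw1 (0.35) were higher and Gclc (-0.32) was lower. Of 10 copper genes tested, 1 was called higher (Slc31a2 at 0.29) and 3 lower, namely Ccs (-0.49), the copper importer gene Slc31a1 (-0.26) and Atox1 (-0.21).

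In the Trim33 table the members differed little between genotype labels beside the spread of its libraries. With activin A, 1 of the 7, Mt2, was called higher in the libraries labelled knockout. With SB431542, limma called 0 of the 7 and 0 had an unadjusted p under 0.05. Over the 11914 genes tested, 9.43% were called with activin A (6.61% as higher and 2.82% as lower) and 9.56% with SB431542 (3.01% as higher and 6.55% as lower). The median log2 fold change over the 7 genes was 0.07 with activin A and -0.14 with SB431542, against 0.01 and -0.01 over all genes.

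Mt2 was at 967 and 716 RPKM in the activin A libraries labelled wild type and at 1443 and 1808 RPKM under the knockout label with activin A. With SB431542 it was at 1389 and 2192 RPKM under the wild-type label and at 1547 and 1258 RPKM under the knockout label. The 2 activin A libraries labelled wild type were the lowest of the 8, and the other 6 overlapped. The label effect with activin A was 0.96 ± 0.25 on the log2 scale (adjusted p = 0.0482), and that with SB431542 was -0.32 ± 0.25 (adjusted p = 0.476). The difference between these label effects, tested as an interaction, was 1.28 ± 0.36 (adjusted p = 0.0297), among 26.3% of genes called for that term (16.1% above 0 and 10.1% below). As the SB431542 labels go against Trim33, this term sets the libraries low in Trim33 against those high in it. It adds the differences with the 2 agents and does not average them. The interaction missed the threshold without the second library of any of the 4 groups, at 0.95 to 1.13 with adjusted p from 0.0772 to 0.118. The effect with activin A ranged from 0.74 to 1.17 when each of the 4 libraries compared was left out in turn and passed in none of those fits, with adjusted p from 0.103 to 0.295. It also missed the threshold without the filter on low values (0.119), after trimmed-mean rescaling (0.0684) and without limma's intensity trend (0.0529).

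Mt1 was at 572 and 386 RPKM in the activin A libraries labelled wild type and at 585 and 800.2 RPKM under the knockout label with activin A. With SB431542 it was at 695 and 1313 RPKM under the wild-type label and at 858 and 741 RPKM under the knockout label. Its lowest libraries were the same as those of Mt2, but the neighbouring values of 572 and 585 RPKM left almost no gap. The label effect was 0.54 ± 0.31 with activin A (adjusted p = 0.308, 95% interval -0.16 to 1.24) and -0.26 ± 0.31 with SB431542 (adjusted p = 0.658). Averaged over both labels, Mt1 was lower by 0.62 ± 0.22 on the log2 scale with activin A than with SB431542 (unadjusted p = 0.0191, adjusted p = 1.00) and Mt2 by 0.43 ± 0.18 (unadjusted p = 0.0406), so neither passed. That comparison called 0.109% of all genes tested and 0 of the 7, of which 2 had an unadjusted p under 0.05.

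Slc30a1 ran the opposite way to Mt2 across the labels. With activin A it was at 10.7 and 8.63 RPKM under the wild-type label and at 8.45 and 6.87 RPKM under the knockout label. With SB431542 it was at 7.89 and 9.63 RPKM under the wild-type label and at 10.3 and 13.2 RPKM under the knockout label. Its interaction of -0.68 ± 0.26 did not pass (unadjusted p = 0.0300, adjusted p = 0.0891). Slc39a4 was between 6.14 and 9.19 RPKM in all 8 libraries and differed more within groups than between group means. The label effects on Slc39a4 were 0.07 (95% interval -0.43 to 0.57) with activin A and -0.09 (-0.59 to 0.41) with SB431542. Slc39a1 was between 12.8 and 17.6 RPKM, Slc39a10 between 14.9 and 24.5 RPKM and Mtf1 between 2.23 and 3.18 RPKM, and none of their label effects passed. The interval for Slc30a1 with activin A, -0.72 to 0.12, holds a change of the size seen in the Pml knockout.

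**Figure D5:**
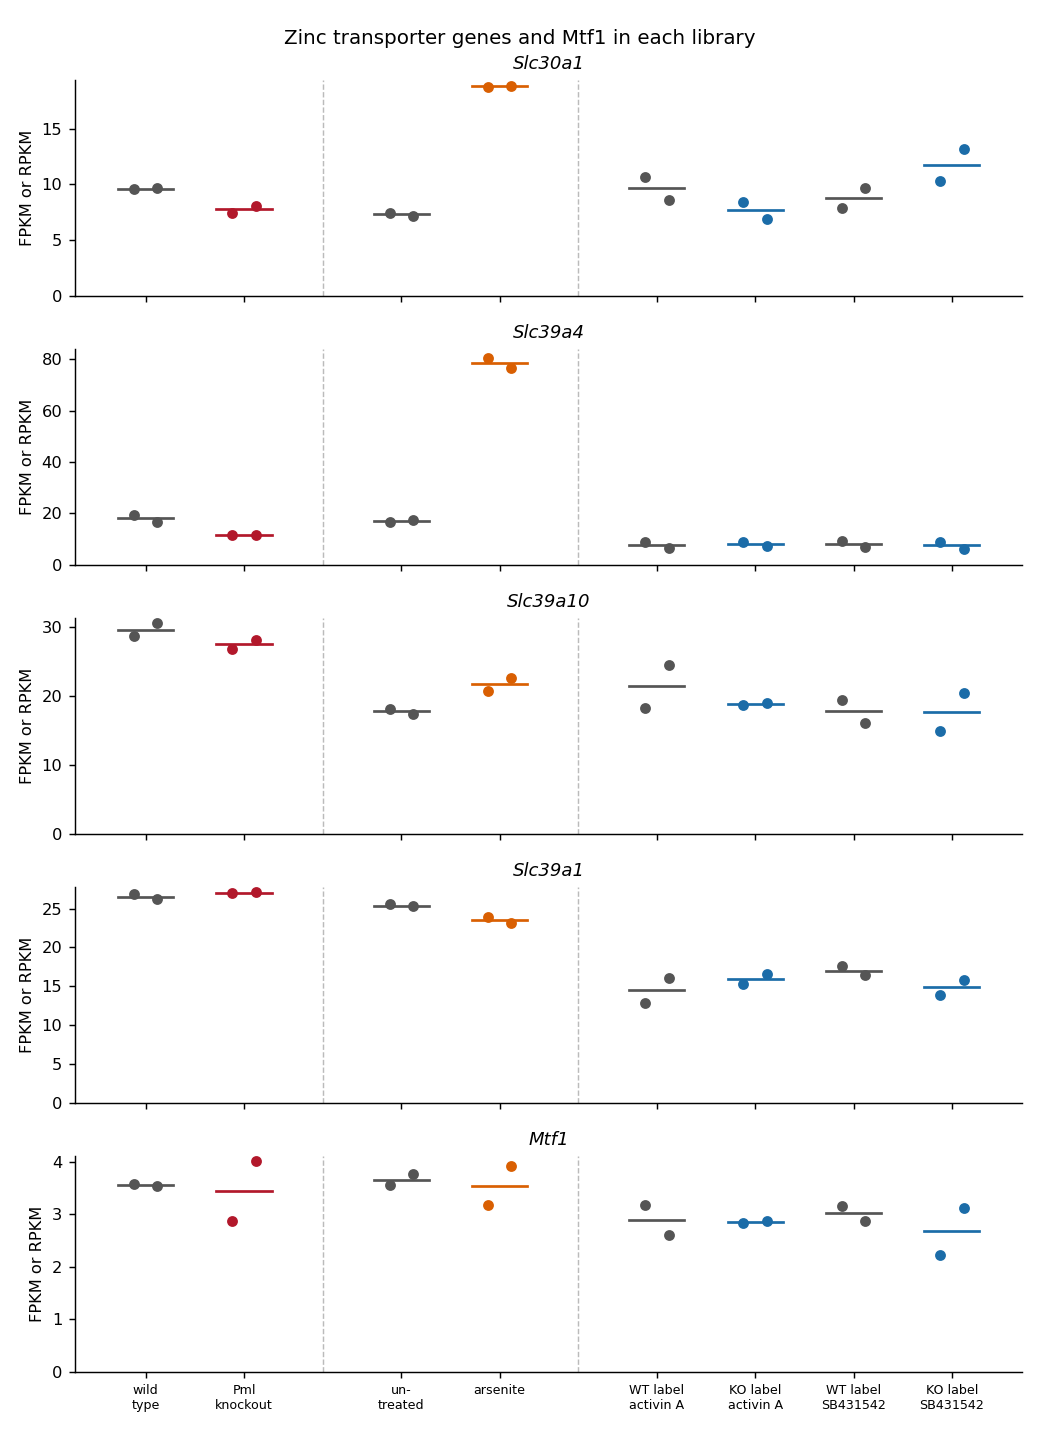
Levels of Slc30a1, Slc39a4, Slc39a10, Slc39a1 and Mtf1 in each of the 16 libraries on linear axes from 0, in FPKM for the Pml table and RPKM for the others. Points are libraries, horizontal bars are group means and dashed lines separate the tables. Slc30a1 and Slc39a4 stand highest in both arsenite libraries, and Mtf1 stays between 2.23 and 4.03 in all 16.

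Among the wider families in the Trim33 table, Slc30a2 was higher in the 4 libraries with low Trim33, under opposite labels. It was at 4.81 and 4.66 RPKM in the libraries labelled knockout with activin A against 2.62 and 1.63 RPKM in those labelled wild type (0.90 ± 0.20, adjusted p = 0.0289). With SB431542 it was at 2.95 and 2.26 RPKM in the libraries labelled knockout against 5.92 and 5.01 RPKM in those labelled wild type (-0.85 ± 0.20, adjusted p = 0.0342). Slc39a8, the only one of 11 Slc39a genes called with activin A, was at 0.309 and 0.396 RPKM in the libraries labelled knockout against 1.25 and 1.82 RPKM in those labelled wild type (-0.90 ± 0.18, adjusted p = 0.0199). None of the 11 was called with SB431542, where 2 had an unadjusted p under 0.05. Slc39a8 just missed the threshold there (0.68 ± 0.18, adjusted p = 0.0505 in limma). It was at 1.17 and 1.44 RPKM under the knockout label against 0.375 and 0.504 RPKM under the wild-type label. Slc39a8 was thus lower in the libraries low in Trim33 with both agents. Next to the metallothionein cluster, Bbs2 was at 9.48 and 9.83 RPKM against 5.13 and 4.26 RPKM with activin A (0.91 ± 0.15, adjusted p = 0.00958), in the same order of labels. It was lower in the libraries labelled knockout with SB431542 (-0.89, adjusted p = 0.00997). With Bbs2 counted, 6 neighbours within 200 kb of Mt1 or Mt2 were tested. For the interaction, 4 of these were called above 0 and 0 below, against 16.1% and 10.1% of all genes. The median of that term on the log2 scale, a sum over both agents, was 0.90 over these neighbours and 0.03 over all genes. The part of these neighbours in the values of Mt2 was not tested. The summed level of 9 fibroblast markers reached 183 RPKM in a library labelled knockout with activin A and 166 RPKM in one labelled wild type with SB431542, and was between 74.7 and 114 RPKM in the other 6, with Tagln at 118 and 111 RPKM in the first 2. Its part in the values above was not tested.

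Levels in cells with neither a knockout nor a named agent differed between tables for the metallothionein genes. The mean in wild-type cells of the Pml table was 5.71 times the mean in untreated cells of the arsenite table for Mt1 and 4.65 times for Mt2, and between 0.973 and 1.67 times for the other 5 genes. The tables were normalised separately and in different units, so these ratios were not tested. Over 616 genes of 300 to 1500 exonic bases the median ratio was 1.62, and 12 of them had a higher ratio than Mt1 and 24 a higher ratio than Mt2.

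The ends of the order of the 7 genes were the same in each library. Mt2 was the most abundant of the 7, followed by Mt1, in all 16 libraries, and Mtf1 was the least abundant in all 16. Between them, the transporters lay from 6.14 to 80.4 FPKM or RPKM, and their order varied between libraries. Slc39a1 stood above Slc39a10 in untreated and arsenite-treated cells and below it in Pml wild type. In untreated cells Slc39a1 (25.4) stood above Slc39a10 (17.8) and Slc39a4 (16.9), whose libraries lay close together at 18.1 and 17.4 and at 16.6 and 17.3 RPKM. After arsenite Slc39a4 stood above every other transporter of the 7.

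Across the 16 libraries, with each table centred on its own mean, the gene most like Mt1 of 10489 compared was Mt2 (Pearson r = 0.97), followed by Amdhd2 (0.95) and Phf19 (0.93). Those most like Mt2 were Mt1, Rasal1 (0.95) and Cbx8 (0.94). Slc39a4 was most like Nup62cl (0.99) and Plcd1 (0.97), Slc30a1 most like Elovl5 (0.96) and Shc1 (0.95), and Slc39a10 most like Atp7a (0.90). Among members, Mt1 ran with Slc39a4 (0.82) and Slc30a1 (0.78) and not with Mtf1 (-0.07). The largest steps of Mt1, Slc39a4 and Slc30a1 were those with arsenite, and correlations within single tables were not computed. In the Trim33 table Slc39a4 stayed between 6.14 and 9.19 RPKM, and Slc30a1 ran the opposite way to Mt2 across the labels. These correlations are descriptions with no test, because the libraries fall into treatment groups and share their tables. Phf19, for example, was at 5.19 and 5.73 RPKM in untreated cells and at 17.1 and 18.0 RPKM after arsenite, and Nup62cl at 26.3 and 26.4 and at 98.4 and 97.2 RPKM.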

How the data were processed

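RNA-seq values of 16 libraries of mouse ES cells were taken as deposited. Per the submitters' processing notes, tools were DESeq2, featureCounts 2.0.1, SAMtools 1.9, Bowtie2 2.3.3 and FastQC 0.11.5 and the build was mm10, with no role given for each. The Pml table holds FPKM values and the arsenite table RPKM values, as deposited by the authors under those names. The Trim33 table names no unit, but its deposited values behave as RPKM, since single-exon genes fall on whole multiples of 1 read. From such steps depth came to 31150000 to 39450000 reads for the Trim33 libraries and 46700000 to 48500000 for the arsenite and untreated libraries (90.9% to 94.6% of values under 20 reads whole within 0.05 reads), and it is unknown for the Pml table. A value of 1 RPKM is then 31.1 to 48.5 reads per kilobase. Replicate libraries differed by more than sampling noise wherever this could be checked, and none held identical values.

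Values were tested as log2(value + 1), which understates changes of low genes, with limma 3.58.1 in R 4.3.3 (lmFit and eBayes with trend, two-sided, Benjamini-Hochberg over all genes tested, call at adjusted p under 0.05), keeping genes of at least 1 in at least 2 libraries. The Trim33 table was fitted as 4 group means (4 residual degrees of freedom), and each other table by itself (2 residual degrees of freedom). Columns of untreated cells, whose letter differs from that in the titles, were taken as the one group left. Left out were 27 date-like names per table. The members and gene lists were chosen with earlier results of these data known. Named genes are all members, called or largest genes of the lists, Pml, Trim33 and Eif2s3y as label checks, the neighbours of the metallothionein cluster, and the 3 genes most correlated with a member. Coordinates come from GENCODE annotation of GRCm38, promoters from RefSeq (GRCm38.p6), which matched 6 of the 7 members. Alternatives were pseudocounts of 0.1 and 0.5, no filter, trimmed-mean and quantile rescaling, no trend, a replicate block, and leaving out each library. No count-based test was run, because the values are not counts. Figures were drawn with matplotlib 3.10.9 in Python 3.11.15.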

Additional observations from a re-analysis of the deposited data

Results flagged for a closer look

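The effect of the Trim33 genotype label on Mt2 differed between the treatments, with a difference of 1.28 ± 0.36 on the log2 scale between its effect with activin A and that with SB431542 (limma's interaction term, adjusted p = 0.0297). The effect was 0.96 with activin A and -0.32 with SB431542. Trim33 itself went against the labels in the SB431542 libraries. It was at 2.94 and 2.44 RPKM under the wild-type label and at 18.3 and 24.6 RPKM under the knockout label. The difference between label effects therefore adds, over both agents, the differences of libraries low in Trim33 from those high in it. It is the sum of those differences and not their mean. Mean Mt2 was higher in the libraries low in Trim33 with either agent, although the SB431542 groups overlapped. The term does not show that an effect of the Trim33 level depends on the agent. Left out one at a time, the second library of each group in turn gave 0.95 to 1.13 for Mt2 (adjusted p from 0.0772 to 0.118). Without the first SB431542 library labelled wild type, Mt1 passed as well (1.26, adjusted p = 0.0429), and without the first one labelled knockout Slc30a1 did (-0.84, adjusted p = 0.0474).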

How the results depend on the processing

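With 2 libraries a group, each call leans on limma's pooling of the spread over genes. In the arsenite comparison 5 members were called, 5 with any library left out and 6 after trimmed-mean or quantile rescaling, where Slc39a1 passed as lower. In the Pml comparison 4 were called, and 3 to 4 with a library left out. With activin A, 1 member (Mt2) was called between the Trim33 labels, 0 without the filter, after trimmed-mean rescaling, without trend or with the replicate block (Mt2 0.96, adjusted p = 0.0621), and 0 to 1 with a library left out. For the interaction 1 was called, 0 without the filter and 0 to 2 with a library left out. With SB431542 and for activin A against SB431542 limma called 0 under each of these settings. Signs that turned belonged to members that did not pass. Under quantile normalisation these were Slc39a10 with SB431542 (0.00) and Mtf1 for activin A against SB431542 (0.00) and the interaction (-0.08). With a library left out, Mtf1 ranged from -0.23 to 0.14 (Pml), -0.15 to 0.08 (arsenite), -0.12 to 0.10 (activin A), -0.32 to 0.04 (SB431542), -0.08 to 0.10 (activin A against SB431542) and -0.05 to 0.31 (interaction). In the same order of the last 4, Slc39a4 ranged from -0.10 to 0.24, -0.34 to 0.15, -0.11 to 0.14 and -0.08 to 0.41. Slc39a10 ranged from -0.36 to 0.05 (activin A), -0.23 to 0.19 (SB431542) and -0.35 to 0.08 (interaction), and Slc39a1 from -0.02 to 0.29 (activin A) and -0.14 to 0.01 (activin A against SB431542). With SB431542, Mt1 ranged from -0.72 to 0.20 and Mt2 from -0.65 to 0.01, and both turned without the second library labelled wild type. Over all genes, calls with activin A fell from 1123 to between 185 and 355 without one of the libraries compared and came to 1852 in a fit of those 4 alone. With SB431542 they went from 1139 to between 294 and 1036, and to 608 in the fit of 4. For activin A against SB431542 they were 13, 8 without the filter, 23 with the replicate block and 7 to 16 with a library left out, and for the interaction 3129 and 1853 to 3395. Quantile normalisation moved the share of calls that were higher from 70.1% to 57.9% (activin A), 31.5% to 41.7% (SB431542) and 61.5% to 49.5% (interaction). No paired analysis was possible for the arsenite table because its untreated columns, named by another letter than the titles, could be tied to their group but not to single samples. Elsewhere the labels tie libraries by a number alone. Deviations of same-numbered libraries correlated at 0.02 in the Pml table. In the Trim33 table they correlated at 0.60 between the 2 groups low in Trim33 and at 0.37 between the 2 groups high in it. The other pairs of groups there lay between -0.14 and 0.21. With the replicate block, calls over all genes were 4324 (Pml), 1584 (activin A), 1557 (SB431542) and 3667 (interaction). The cause of these changes was not tested.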
